A study of Mus musculus with 3 samples.

Results

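The solute carriers are the largest group of membrane transport proteins, and the genes described here are those of them that 3 cultures of mouse pluripotent stem cells expressed. A gene was taken where its symbol in the platform annotation was Slc followed by a digit and where its intensity reached 150 on at least 1 of the 3 arrays, with the brightest probe set standing for a gene that had several. Of 361 such genes among 22180 genes measured, 137 reached the limit. Gene expression was measured on Affymetrix Mouse Gene 2.0 ST arrays (a single array for each culture), in cells of or derived from the established mouse embryonic stem cell (mESC) line EB3. The mouse epiblast stem cells (mEpiSCs), induced from EB3 mESCs, were grown in N2B27 medium with 12 ng/ml bFGF and 20 ng/ml Activin A, which is a ligand of the TGF-beta family. Their time in culture is not stated in the labels, and their tissue label also reads mESC. The Activin+PD culture held EB3 mESCs kept for 64 days in N2B27 with 20 ng/ml Activin A and 2 µM PD0325901, an inhibitor of the kinase MEK. The 2i culture held EB3 mESCs kept for 34 days in N2B27 with 2 µM PD0325901 and 2 µM CHIR99021, an inhibitor of the kinase GSK3. All 3 groups thus share 1 parental line, and medium, cell state and time in culture differ together between them and cannot be told apart.

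Solute carriers move amino acids, sugars, metals, nucleosides, inorganic ions and other small molecules across the plasma membrane and the membranes of organelles, by facilitated diffusion, exchange or coupling to an ion gradient. Their families are numbered by sequence and not by cargo, so that the members were sorted here by what they are known to carry. Naive mESCs and primed mEpiSCs are known for different fuel use, with more glycolysis and lactate release in the primed state and a dependence on threonine in mouse embryonic stem cells.

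The median intensity over all probe sets was 51.9 on the mEpiSC array, 50.9 on the Activin+PD array and 51.2 on the 2i array. Background, the 95th percentile of 1402 probe sets for olfactory and vomeronasal receptor genes, was 47.5 in mEpiSCs, 45.4 in Activin+PD and 48.2 in 2i. Zfp42, a marker of the naive state, had an intensity of 61.4 in mEpiSCs, 2802 in Activin+PD and 2321 in 2i, and Fgf5, a marker of the primed state, had 1879, 135 and 48.4 on the same arrays. Otx2, another marker of the primed state, went partly against the mESC label of Activin+PD, with 331 in mEpiSCs, 225 in Activin+PD and 46.9 in 2i, the last not above background. Dnmt3b, the remaining primed marker listed, did not share this order. It had 3097 in mEpiSCs, 494 in Activin+PD and 746 in 2i, and so was lowest in Activin+PD. Of the general pluripotency factors, Pou5f1 had 336 in mEpiSCs, 273 in Activin+PD and 302 in 2i, while Sox2 had 920.1, 2420 and 2065 on the same arrays and Nanog had 1082, 5149 and 4312. The summed intensity of 6 fibroblast markers, which would show feeder cells, was 435 in mEpiSCs, 370.1 in Activin+PD and 367 in 2i, with 5, 4 and 5 of them above background and Postn below it on every array. For 4 endoderm markers the sum was 374 in mEpiSCs, 232 in Activin+PD and 239 in 2i, with 4, 3 and 2 above background. Most of that difference was Gata6, with 136 in mEpiSCs, 38.3 in Activin+PD and 38.3 in 2i, not above background in either mESC culture. The part of these cells in the differences below was not tested, and in RNA of whole cultures fewer cells of a type and less RNA per cell cannot be told apart.

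With 1 array per culture no difference could be tested, and "higher" and "lower" describe these arrays. A gene was counted where 2 arrays differed at least 2-fold. Between mEpiSCs and 2i, 19 of the 137 solute carrier genes were higher in mEpiSCs and 20 were lower, 13.9% and 14.6% of the members. Over all 7853 genes that reached the same intensity on 1 array or more, 6.47% were higher and 7.54% were lower in mEpiSCs. Between mEpiSCs and Activin+PD, 15 members were higher and 19 lower in mEpiSCs, 10.9% and 13.9%, against 5.17% and 8.02% of all such genes. Activin+PD and 2i, both labelled as mESCs, were closer, with 7 members higher in Activin+PD and 2 lower, 5.11% and 1.46%, against 2.01% and 1.21% of all such genes. The 3 comparisons share arrays, so their counts are not separate pieces of evidence.

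The median difference over the members was near 0 in each comparison. It was 0.0059 on the log2 scale for mEpiSC minus 2i, -0.015 for mEpiSC minus Activin+PD and 0.048 for Activin+PD minus 2i, against 0.0011, 0.015 and -0.012 over all genes at the limit. Of the 137 members, 91 were within 2-fold in all 3 comparisons, a count with no share over all genes beside it. Taken singly in the same order, 98, 103 and 128 members were within 2-fold. Over the 7853 genes at the limit these counts were 6753, 6817 and 7600, a larger share each time. The limit itself favours genes that differ, since 13 members reached it on the mEpiSC array alone, 6 on the Activin+PD array alone and 5 on the 2i array alone, while 93 reached it on all 3. With the limit set on the mean of the 3 arrays, an alternative chosen after seeing the data, 12 of 117 members were higher and 15 lower in mEpiSCs than in 2i, 10.3% and 12.8%, against 4.25% and 6.37% of the 6846 genes then counted. Just inside the limit lay Slc43a2, with a highest intensity of 152, Slc27a1 and Slc35c1, both at 159, and just outside it Slc22a17 at 145, Slc25a51 and Slc27a3, both at 144.

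**Figure D1:**
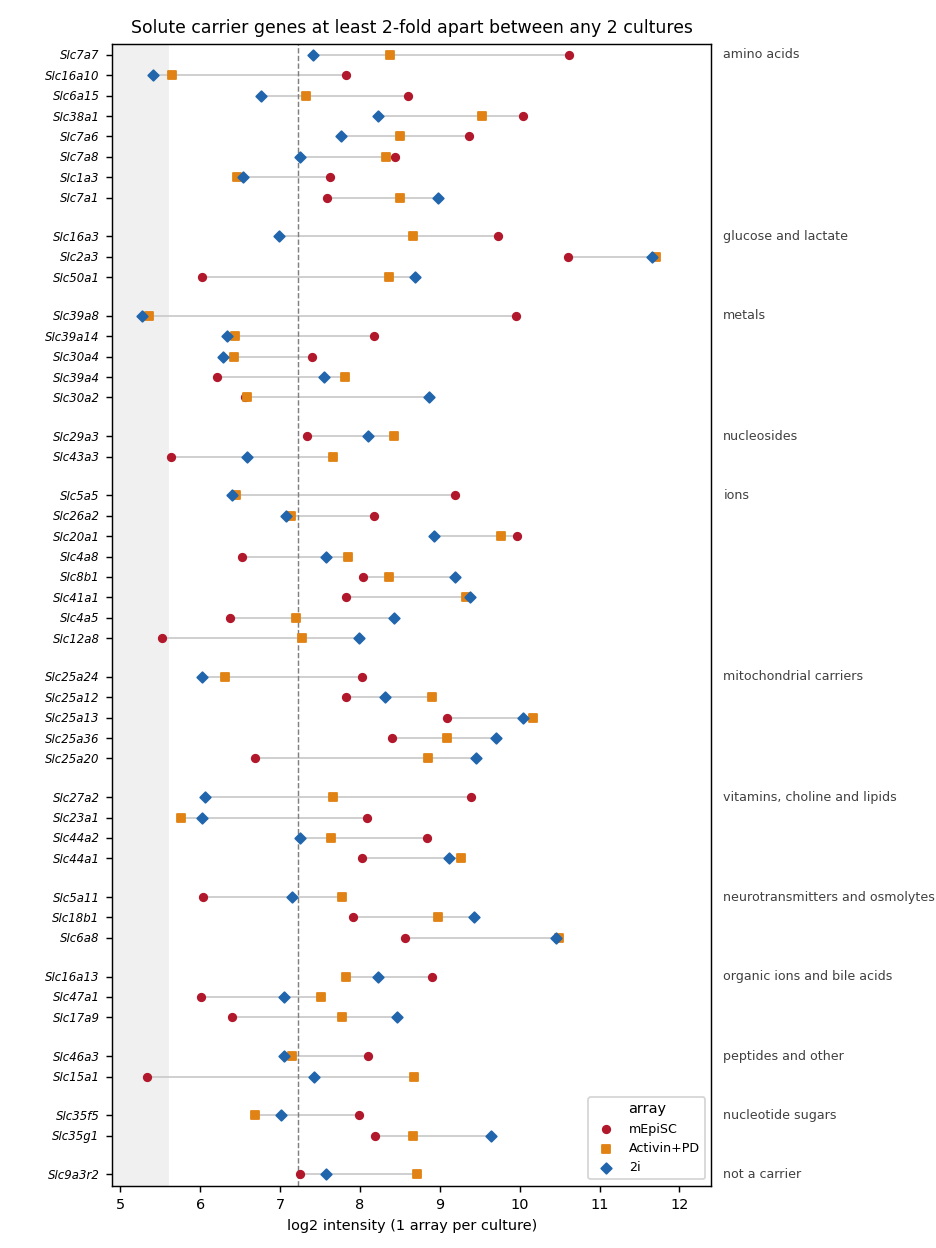
Log2 intensity (x axis) on the mEpiSC (circle), Activin+PD (square) and 2i (diamond) arrays of the 46 solute carrier genes at least 2-fold apart between any 2 cultures, grouped by transported substrate. The dashed line is the intensity limit of 150 and the grey band is background. Squares and diamonds often lie together with the circle apart, as for Slc39a8 and Slc5a5, whereas for Slc30a2 the 2i diamond stands apart.

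A probe set difference carries its own error. Over 497 genes with 2 probe sets above background on all arrays, the standard deviation of a probe set's difference was 0.33 on the log2 scale for mEpiSC minus 2i, 0.301 for mEpiSC minus Activin+PD and 0.24 for Activin+PD minus 2i. This spread does not include the variation between cultures. Of the 10 members with a second probe set, 5 had it below background on 1 array or more, among them Slc27a2 and Slc29a3.

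Of the 52 amino acid carrier genes measured, 22 were members. Between mEpiSCs and 2i, 7 were at least 2-fold higher in mEpiSCs and 1 was lower, where 6.47% and 7.54% of all genes at the limit were, with a median difference of 0.28 on the log2 scale, against 0.0011 over all genes at the limit. Between mEpiSCs and Activin+PD 4 were higher and 0 lower, against 5.17% and 8.02% of all genes at the limit. Between Activin+PD and 2i 2 were higher and 0 lower, against 2.01% and 1.21%. Slc7a7, which exchanges cationic for neutral amino acids, led with an intensity of 1571 in mEpiSCs, 332 in Activin+PD and 170.4 in 2i. It was 9.22-fold higher in mEpiSCs than in 2i and 1.95-fold higher in Activin+PD than in 2i.

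Slc7a7 works as a light chain joined to the heavy chain Slc3a2, and the other light chains of that kind did not move alike. Its close relative Slc7a6 had 660.2 in mEpiSCs, 361 in Activin+PD and 217 in 2i. Slc7a8, a light chain for large neutral amino acids, had 348 in mEpiSCs, 321 in Activin+PD and 152 in 2i, so that both Activin A cultures lay above 2i, by 2.28-fold and 2.10-fold. Slc7a5, the main light chain for leucine and other large neutral amino acids, had 1623 in mEpiSCs, 1044 in Activin+PD and 1161 in 2i, within 2-fold throughout. The heavy chain Slc3a2 itself was within 1.5-fold, at 1437 in mEpiSCs, 1278 in Activin+PD and 1123 in 2i. Between mEpiSCs and 2i, each of these light chains differed by more than the chain they share, Slc7a5 only slightly, at 1.40-fold against 1.28-fold. This did not hold in every comparison. Slc7a8 was 1.09-fold higher in mEpiSCs than in Activin+PD, where Slc3a2 was 1.12-fold higher.

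Carriers that work without the heavy chain went in opposite directions. Slc7a1, the ubiquitous carrier of arginine and lysine, had 192 in mEpiSCs, 362 in Activin+PD and 504 in 2i, and was the 1 amino acid carrier at least 2-fold lower in mEpiSCs than in 2i, by 2.62-fold. Slc7a3, with the same cargo, had 1749.6 in mEpiSCs, 1642 in Activin+PD and 990 in 2i, a difference of 1.77-fold between mEpiSCs and 2i in the other direction. The 2 arginine carriers therefore ran in opposite order over the arrays.

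Among glutamine carriers, Slc38a1 stood apart. Slc38a1, a sodium-coupled carrier of glutamine and other small neutral amino acids, had 1050.1 in mEpiSCs, 742 in Activin+PD and 299.9 in 2i, with both Activin A cultures above 2i by 3.5-fold and 2.47-fold. Its relative Slc38a2 was flat, at 1979.7 in mEpiSCs, 1955 in Activin+PD and 1891 in 2i. Slc38a4, an imprinted gene of the same family, had 1951 in mEpiSCs, 2581 in Activin+PD and 1832 in 2i. Slc1a5, an exchanger that brings glutamine in, had 242 in mEpiSCs, 249.6 in Activin+PD and 408 in 2i, lower in both Activin A cultures but within 2-fold, and its dimmer second probe set gave a log2 difference of -0.21 for mEpiSC minus 2i, against -0.75 on the one used.

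Slc16a10, a carrier of aromatic amino acids, had 227 in mEpiSCs, 50.2 in Activin+PD and 42.4 in 2i. It was not above background in 2i, so that the mEpiSC level was at least 4.70-fold higher than 2i, and it was 4.52-fold higher than Activin+PD. Slc6a15, a sodium-coupled carrier of branched-chain amino acids and proline, had 388 in mEpiSCs, 159.7 in Activin+PD and 108 in 2i. Slc1a3, a glutamate carrier best known from glia, had 198 in mEpiSCs, 88.3 in Activin+PD and 93.2 in 2i. For Slc16a10 and Slc1a3 the mESC arrays lay close together and only mEpiSCs stood apart, whereas Slc6a15 in Activin+PD lay 1.48-fold above 2i. Slc7a11, the cystine carrier, did not reach the limit and was below background on every array, at 27.6 in mEpiSCs, 25.1 in Activin+PD and 25.6 in 2i.

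Of the genes listed beside these carriers because they report on amino acid supply, 4 of 8 reached the limit, and Asns, which encodes asparagine synthetase, was the 1 that differed 2-fold. It had 689 in mEpiSCs, 1818 in Activin+PD and 2497 in 2i, lower in mEpiSCs by 3.62-fold than in 2i and by 2.64-fold than in Activin+PD. Atf4, the transcription factor of the amino acid response, had 492 in mEpiSCs, 479 in Activin+PD and 407 in 2i.

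Of 28 genes for carriers of glucose, lactate and sugar phosphates, 8 were members, of which 1 was at least 2-fold higher and 2 were lower in mEpiSCs than in either mESC culture. The shares over all genes at the limit were 6.47% and 7.54% against 2i, and 5.17% and 8.02% against Activin+PD. The lactate exporter gene Slc16a3 had 848 in mEpiSCs, 405 in Activin+PD and 127 in 2i, 6.69-fold higher in mEpiSCs and 3.20-fold higher in Activin+PD than in 2i. Slc16a1, the widespread monocarboxylate carrier, had 1498 in mEpiSCs, 915 in Activin+PD and 1046 in 2i, within 2-fold. Monocarboxylate carriers reach the cell surface with the help of a partner, Bsg (basigin) or Emb (embigin). Bsg was level, at 2684 in mEpiSCs, 2594 in Activin+PD and 2653 in 2i. Emb had 2262 in mEpiSCs, 1035 in Activin+PD and 303 in 2i, 7.46-fold higher in mEpiSCs and 3.41-fold higher in Activin+PD than in 2i. Slc16a3 and Emb therefore had the same order of arrays and folds of similar size, while Bsg did not move with them. Whether Emb serves Slc16a3 in these cells was not tested.

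The 300 bases around the start of Slc16a3 are shown because this gene is a known target of the hypoxia-inducible factors, whose binding core was searched for. The sequence is from RefSeq, build GRCm38.p6, chr11:120948817-120949116 on the plus strand, from 250 bases before the start of the gene to 50 after it, with each match to the core ACGTG on either strand in capitals.
Slc16a3: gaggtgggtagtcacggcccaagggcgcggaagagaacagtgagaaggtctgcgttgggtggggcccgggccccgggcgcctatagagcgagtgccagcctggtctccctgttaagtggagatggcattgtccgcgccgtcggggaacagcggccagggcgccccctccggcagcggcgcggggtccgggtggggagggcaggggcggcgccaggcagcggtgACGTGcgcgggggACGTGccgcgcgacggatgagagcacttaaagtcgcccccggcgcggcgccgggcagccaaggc
There were 2 matches, at -27 and -14 from the start. Of 27025 first-listed promoters of that length, 19.7% held at least 1 match, and of the 108 member genes with a RefSeq promoter, 32.4% did. Hif1a itself had 913 in mEpiSCs, 759 in Activin+PD and 616 in 2i. A match is a stretch of letters and was not measured as a bound site.

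Among the sugar carriers, Slc2a3, a high-affinity glucose carrier of neurons and early embryos, had 1561 in mEpiSCs, 3345 in Activin+PD and 3228 in 2i, lower in mEpiSCs by 2.14-fold than in Activin+PD and by 2.07-fold than in 2i. Slc2a1, the common glucose carrier, had 2538 in mEpiSCs, 3160.3 in Activin+PD and 2421 in 2i, within 2-fold. Slc50a1, a sugar carrier, had 65.0 in mEpiSCs, 331 in Activin+PD and 414 in 2i, a level 6.36-fold lower in mEpiSCs than in 2i. Among enzymes of the same pathway, Ldhb, a lactate dehydrogenase subunit, had 342 in mEpiSCs, 782 in Activin+PD and 1231 in 2i, while Ldha, the other subunit, had 243 in mEpiSCs, 139.6 in Activin+PD and 156 in 2i. Hk1, a hexokinase, had 65.6 in mEpiSCs, 153 in Activin+PD and 219 in 2i, and Hk2 had 748, 572 and 672 on the same arrays. Mpc1, of the mitochondrial pyruvate carrier, had 307 in mEpiSCs, 783 in Activin+PD and 497 in 2i. Of the 9 listed glucose and lactate partners that reached the limit, 1 was at least 2-fold higher and 2 lower in mEpiSCs than in 2i. Over all genes at the limit, 6.47% were higher and 7.54% lower.

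**Figure D2:**
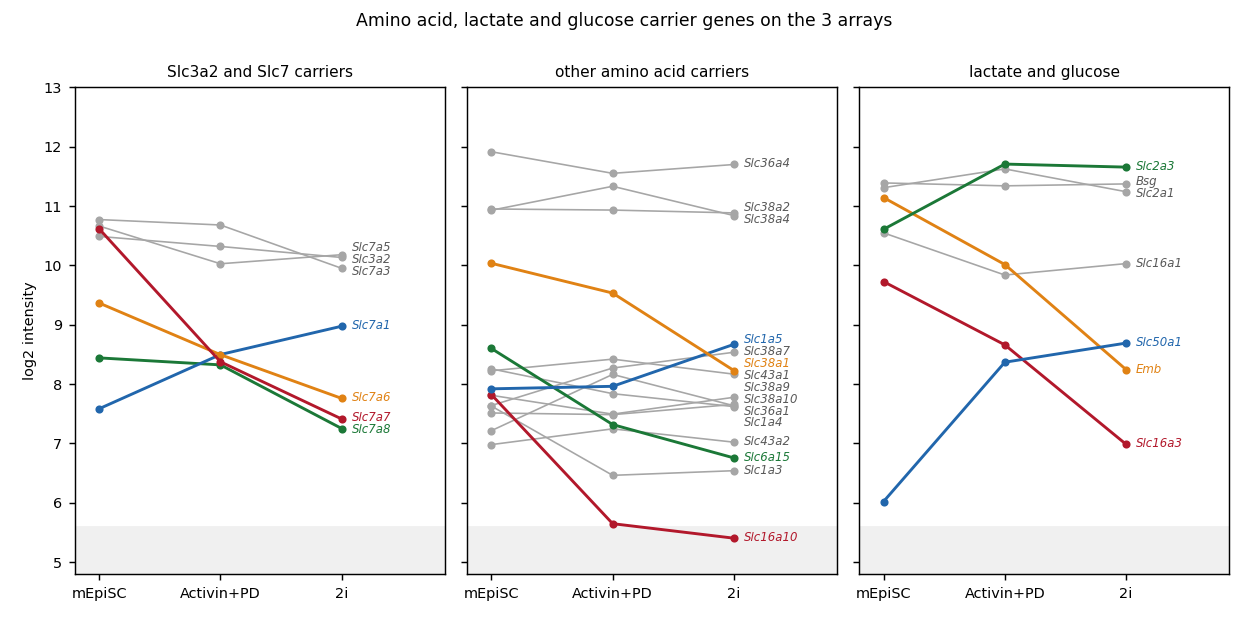
Log2 intensity (y axis) on the mEpiSC, Activin+PD and 2i arrays (x axis) for Slc3a2 with the Slc7 carriers, for the other amino acid carriers, and for lactate and glucose carriers with the partners Bsg and Emb. Each line is 1 gene on 1 array per culture, colours pick out genes named in the text, and the grey band is background. Slc7a7, Slc38a1, Slc16a3 and Emb were highest in mEpiSCs and lowest in 2i, while Slc50a1 and Slc2a3 were lowest in mEpiSCs.

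Metal carriers numbered 19 members of 28 measured genes. Within 2-fold were 14 of the 19 between mEpiSCs and 2i, 16 between mEpiSCs and Activin+PD and 18 between Activin+PD and 2i. In the same order, 6753, 6817 and 7600 of all 7853 genes at the limit were within 2-fold, a larger share each time. The exceptions lay among zinc carriers, the Slc39 genes that bring zinc into the cytosol and the Slc30 genes that take it out. Most of the class is of this kind, as 9 of the 19 members were Slc39 genes and 6 were Slc30 genes. Between mEpiSCs and 2i the exceptions ranged in size from 2.16-fold, for Slc30a4, to at least 20.5-fold, for Slc39a8. Slc39a8, which carries zinc and manganese into cells, had 989 in mEpiSCs, 40.9 in Activin+PD and 38.7 in 2i. It was not above background in either mESC culture, so that it was higher in mEpiSCs by at least 21.8-fold than in Activin+PD and by at least 20.5-fold than in 2i.

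Slc39a14, the closest relative of Slc39a8 and a carrier of zinc, manganese and iron, had 289 in mEpiSCs, 86.9 in Activin+PD and 80.6 in 2i. Slc39a4, the zinc carrier of the intestine, went the other way with 73.9 in mEpiSCs, 224 in Activin+PD and 187 in 2i. The other 6 Slc39 members were within 2-fold in all comparisons. Among them Slc39a10 had 1149 in mEpiSCs, 837 in Activin+PD and 821 in 2i, and Slc39a7, which releases zinc from the endoplasmic reticulum, had 536 in mEpiSCs, 381 in Activin+PD and 346 in 2i.

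On the export side, Slc30a2, which loads zinc into vesicles, was set apart by the 2i array. It had 94.4 in mEpiSCs, 95.7 in Activin+PD and 465 in 2i, lower by 4.93-fold in mEpiSCs and by 4.86-fold in Activin+PD. Only 1 other member, Slc4a5, was at least 2-fold lower in Activin+PD than in 2i. Slc30a4, another vesicular zinc carrier, had 169 in mEpiSCs, 86.1 in Activin+PD and 78.1 in 2i. The remaining Slc30 members, which include the Golgi carriers Slc30a5 and Slc30a6, were within 1.5-fold.

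The promoters of Slc39a8 and Slc30a2 are shown because zinc genes can be controlled by the metal-sensing factor MTF1, whose binding core was searched for in both. They are from RefSeq, build GRCm38.p6, 250 bases before to 50 after the first start listed, on the plus strand at chr3:135825029-135825328 and chr4:134343216-134343515. Capitals mark matches to TGCACNC or TGCGCNC on either strand.
Slc39a8: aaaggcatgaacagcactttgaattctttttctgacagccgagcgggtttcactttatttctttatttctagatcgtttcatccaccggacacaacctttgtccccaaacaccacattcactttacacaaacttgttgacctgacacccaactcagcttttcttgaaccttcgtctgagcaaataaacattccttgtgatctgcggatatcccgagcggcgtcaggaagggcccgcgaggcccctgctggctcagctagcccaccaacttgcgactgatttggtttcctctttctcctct
Slc30a2: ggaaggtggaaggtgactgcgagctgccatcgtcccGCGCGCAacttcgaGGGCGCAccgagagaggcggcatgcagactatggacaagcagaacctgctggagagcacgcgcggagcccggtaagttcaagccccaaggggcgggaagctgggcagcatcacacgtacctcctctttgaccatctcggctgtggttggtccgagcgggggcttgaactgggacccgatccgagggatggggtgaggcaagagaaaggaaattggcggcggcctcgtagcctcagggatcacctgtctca
Slc30a2 had 2 matches, at -214 and -200 on the minus strand, and Slc39a8 had 0 in this window. At least 1 match was held by 25.6% of the 27025 promoters and by 37.0% of the 108 member promoters. The core CTTTG of the TCF/LEF factors, which act when GSK3 is inhibited, was found once in the Slc30a2 window, 2 times in that of Slc39a8 and 0 times in that of Slc16a3, against 54.0% of all promoters with at least 1 match and 40.7% of the member promoters. None of these letters shows binding.

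Zinc-binding partners differed as well. Mt1 and Mt2, the metallothioneins that bind zinc and copper and whose genes respond to free zinc, were lowest in mEpiSCs. Mt1 had 1009 in mEpiSCs, 1964 in Activin+PD and 3242 in 2i, and Mt2 had 951, 3966 and 5223 on the same arrays, 5.49-fold lower in mEpiSCs than in 2i. Mtf1 had 136 in mEpiSCs, 164 in Activin+PD and 169 in 2i. Iron genes were mixed. Slc11a2, an iron importer, had 259 in mEpiSCs, 225 in Activin+PD and 248 in 2i, and Tfrc, the transferrin receptor, had 613 in mEpiSCs, 732 in Activin+PD and 779 in 2i. Slc40a1, the iron exporter, did not reach the limit but was higher in mEpiSCs, with 143 in mEpiSCs, 41.4 in Activin+PD and 49.7 in 2i. Steap3, an iron reductase, had 67.0 in mEpiSCs, 168.6 in Activin+PD and 97.0 in 2i, lower in mEpiSCs than in Activin+PD by 2.52-fold.

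**Figure D3:**
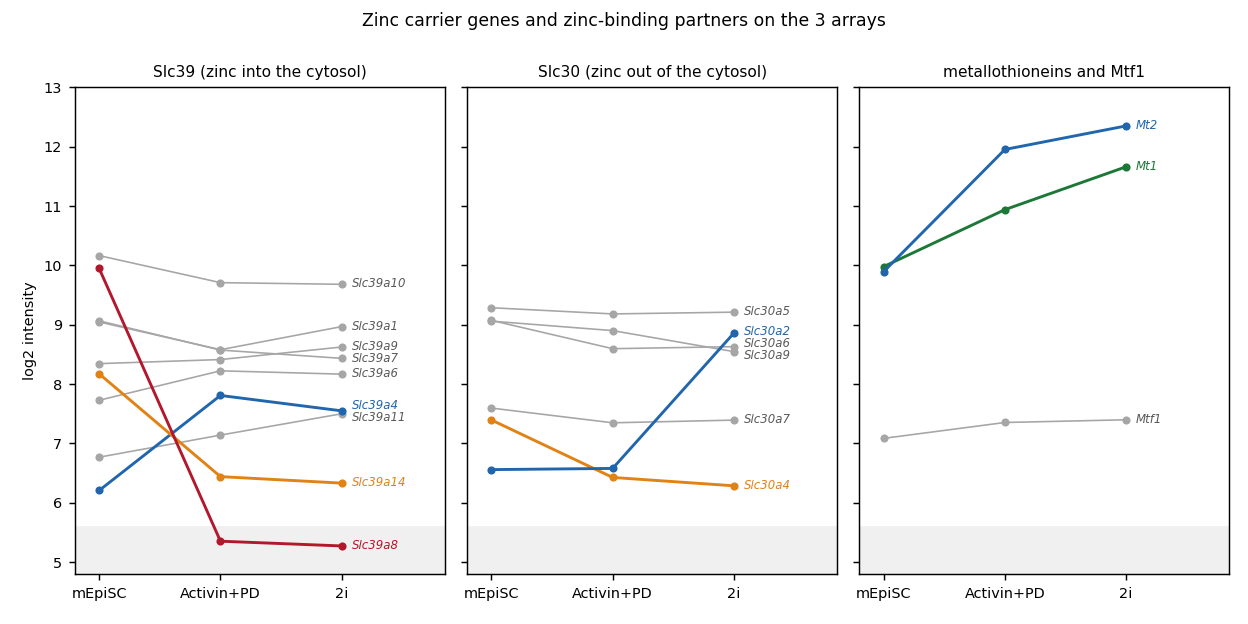
Log2 intensity (y axis) on the mEpiSC, Activin+PD and 2i arrays (x axis) for the 9 Slc39 members, the 6 Slc30 members, and Mt1, Mt2 and Mtf1. Each line is 1 gene and the grey band is background. Slc39a8 leaves background in mEpiSCs alone, Slc30a2 is high in 2i alone, and both metallothioneins are lowest in mEpiSCs.

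Nucleoside and nucleobase carriers numbered 5 members of 8 measured. None differed 2-fold between mEpiSCs and 2i, while 2 were lower in mEpiSCs than in Activin+PD and 1 was higher in Activin+PD than in 2i. Over all genes at the limit, 8.02% were lower in mEpiSCs than in Activin+PD, and 2.01% were higher in Activin+PD than in 2i. Slc43a3, a purine nucleobase carrier, had 49.7 in mEpiSCs, 203 in Activin+PD and 96.3 in 2i, and so was highest in Activin+PD, by 2.11-fold over 2i. Slc29a3, a nucleoside carrier of lysosomes, had 162 in mEpiSCs, 344 in Activin+PD and 274 in 2i. Slc29a1, the main plasma membrane nucleoside carrier, had 357 in mEpiSCs, 454 in Activin+PD and 386 in 2i, and its relative Slc29a2 had 389 in mEpiSCs, 228 in Activin+PD and 244 in 2i. Among enzymes that handle adenosine, Adk, adenosine kinase, had 1228 in mEpiSCs, 311 in Activin+PD and 281 in 2i, and Nt5e, which makes adenosine outside the cell, had 267 in mEpiSCs, 67.7 in Activin+PD and 86.8 in 2i. Ada, adenosine deaminase, was within 2-fold, with 139.8 in mEpiSCs, 81.8 in Activin+PD and 77.7 in 2i. Slc28a1, of the sodium-coupled nucleoside carriers, had 86.7 in mEpiSCs, 137 in Activin+PD and 132 in 2i and so missed the limit.

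Ion carriers had 14 members of 57, of which 3 were higher and 5 lower in mEpiSCs than in 2i, where 6.47% and 7.54% of all genes at the limit were. Their median difference was -0.14 on the log2 scale, with members on both sides of 0. Slc5a5, the sodium-iodide carrier of the thyroid, led the higher ones with 583 in mEpiSCs, 87.2 in Activin+PD and 84.1 in 2i, 6.93-fold above 2i. Slc26a2, a sulfate carrier, had 290.5 in mEpiSCs, 140.3 in Activin+PD and 135 in 2i. Slc20a1, a phosphate carrier, had 1002 in mEpiSCs, 874 in Activin+PD and 488 in 2i, with the Activin A cultures together above 2i.

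The lower ion carriers included Slc41a1, a magnesium carrier, with 227 in mEpiSCs, 644 in Activin+PD and 664 in 2i. Slc8b1, the sodium-calcium exchanger of mitochondria, had 263 in mEpiSCs, 329.8 in Activin+PD and 585 in 2i. A pair of sodium-bicarbonate carriers was among them. Slc4a5 had 83.0 in mEpiSCs, 147 in Activin+PD and 344 in 2i, lower in Activin+PD than in 2i by 2.35-fold, and Slc4a8 had 92.4 in mEpiSCs, 231 in Activin+PD and 190.2 in 2i. Slc12a8, of the cation-chloride family, had 45.9 in mEpiSCs, not above background, 155 in Activin+PD and 255 in 2i, lower in mEpiSCs than in 2i by at least 5.36-fold. Slc12a2, the sodium-potassium-chloride cotransporter, had 476 in mEpiSCs, 897 in Activin+PD and 570.5 in 2i, within 2-fold. Of the kinases that act on it, Stk39 had 274 in mEpiSCs, 126 in Activin+PD and 78.2 in 2i, and Oxsr1 had 474, 541 and 566 on the same arrays.

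**Figure D4:**
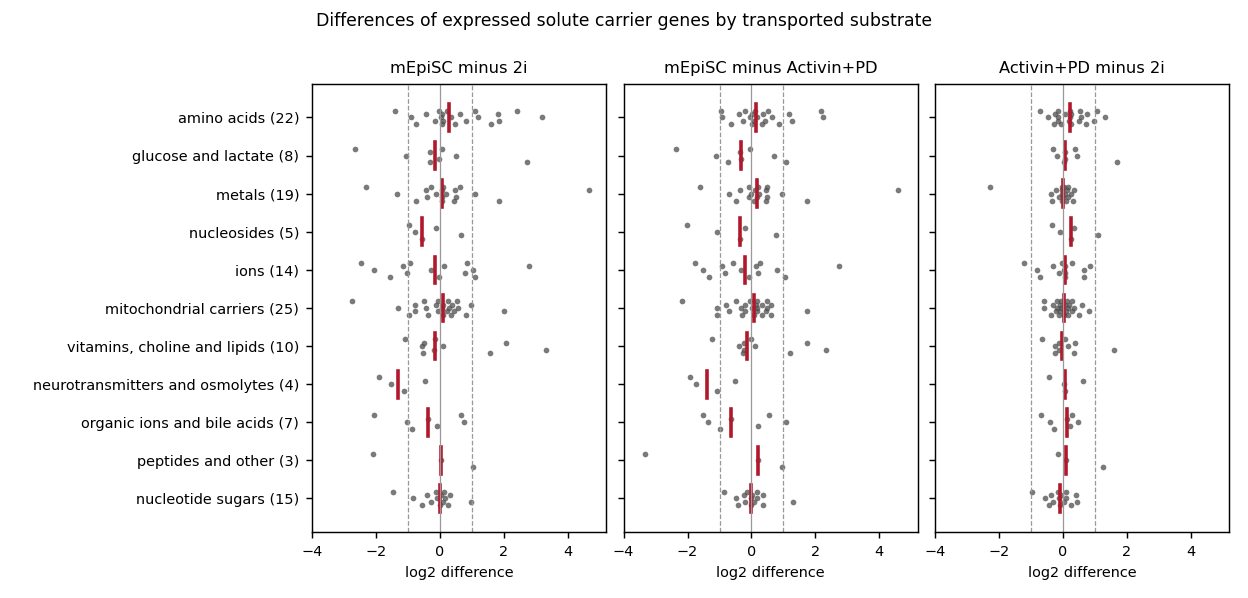
Log2 difference (x axis) of the member genes with a transport class, 1 point per gene, by transported substrate (rows, number of members in brackets) for mEpiSC minus 2i, mEpiSC minus Activin+PD and Activin+PD minus 2i. Members with no transport class, such as Slc9a3r2, are not shown. Red bars are class medians and dashed lines mark 2-fold. The points of Activin+PD minus 2i are the narrowest, and the median of neurotransmitter and osmolyte carriers is -1.32 for mEpiSC minus 2i.

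Mitochondrial carriers, the Slc25 family of the inner membrane, were the largest class with 25 members of 46, with all 25 within 2-fold between Activin+PD and 2i and 22 between mEpiSCs and 2i. Over all 7853 genes at the limit, 7600 and 6753 were within 2-fold in these 2 comparisons. Slc25a5, an ADP/ATP carrier, had 4586 in mEpiSCs, 4779 in Activin+PD and 4266 in 2i, and Slc25a4, another, had 886 in mEpiSCs, 1119 in Activin+PD and 1188 in 2i. Slc25a20 was the exception in size. It imports acylcarnitines for fatty acid oxidation and had 103 in mEpiSCs, 462 in Activin+PD and 700.3 in 2i, 6.78-fold lower in mEpiSCs than in 2i. Slc25a24, which exchanges ATP-magnesium for phosphate, had 261 in mEpiSCs, 79.1 in Activin+PD and 64.9 in 2i. Slc25a36, a pyrimidine nucleotide carrier, had 339 in mEpiSCs, 546 in Activin+PD and 833 in 2i. Both aspartate-glutamate carriers, which serve the transfer of reducing equivalents from the cytosol, were lower in mEpiSCs than in Activin+PD. Slc25a12 had 228 in mEpiSCs, 477 in Activin+PD and 318 in 2i, and Slc25a13 had 547 in mEpiSCs, 1149 in Activin+PD and 1057 in 2i.

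Vitamin, choline and lipid carriers held 10 members, of which 3 were higher and 1 was lower in mEpiSCs against either mESC culture. The shares over all genes at the limit were 6.47% and 7.54% against 2i, and 5.17% and 8.02% against Activin+PD. Slc27a2, a fatty acid carrier that also activates very long chain fatty acids, had 672 in mEpiSCs, 202 in Activin+PD and 66.9 in 2i, a log2 difference of 3.33 between mEpiSCs and 2i, while its second probe set was below background on all arrays. Slc23a1, an ascorbate carrier, had 273 in mEpiSCs, 54.1 in Activin+PD and 65.0 in 2i. The 2 choline carrier genes crossed, Slc44a2 with 457 in mEpiSCs, 198 in Activin+PD and 152 in 2i, and Slc44a1 with 260.2 in mEpiSCs, 618 in Activin+PD and 552 in 2i. The other fatty acid carrier members, Slc27a1 and Slc27a4, were within 2-fold and had their lowest level in mEpiSCs, where Slc27a4 had 157, against 184 in Activin+PD and 177 in 2i.

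All 4 neurotransmitter and osmolyte carriers had their lowest level in mEpiSCs, and 3 of them were at least 2-fold lower there than in either mESC culture. Over all genes at the limit, 7.54% were lower in mEpiSCs than in 2i and 8.02% than in Activin+PD. Slc6a8, the creatine carrier, had 379 in mEpiSCs, 1446 in Activin+PD and 1408 in 2i. Slc18b1, a vesicular polyamine carrier, had 241 in mEpiSCs, 504 in Activin+PD and 689 in 2i, and Slc5a11, a myo-inositol carrier, had 65.6 in mEpiSCs, 219.8 in Activin+PD and 142 in 2i. Slc6a6, the taurine carrier, had 848 in mEpiSCs, 1217 in Activin+PD and 1174 in 2i, within 2-fold.

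Slc15a1, the peptide carrier of the intestine, had 40.4 in mEpiSCs, not above background, 408 in Activin+PD and 172 in 2i. It was lower in mEpiSCs by at least 8.59-fold than in Activin+PD and was 2.37-fold higher in Activin+PD than in 2i. Slc46a3, a lysosomal carrier, had 274 in mEpiSCs, 142 in Activin+PD and 133 in 2i. Organic ion carriers, 7 members of 51, included Slc17a9, which loads nucleotides into vesicles, with 84.7 in mEpiSCs, 219 in Activin+PD and 353 in 2i. Slc47a1, an exporter of organic cations, had 64.6 in mEpiSCs, 183 in Activin+PD and 133 in 2i, and Slc16a13, a monocarboxylate family member, had 477 in mEpiSCs, 226 in Activin+PD and 301 in 2i.

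Nucleotide sugar carriers and their relatives form the Slc35 family, which supplies the Golgi and the endoplasmic reticulum. Between mEpiSCs and 2i, 14 of 15 members were within 2-fold, against 6753 of the 7853 genes at the limit. With so few members this is close to the general share. The exception was Slc35g1, with 291 in mEpiSCs, 405 in Activin+PD and 802 in 2i. Slc35f5 had 255 in mEpiSCs, 103 in Activin+PD and 129 in 2i, 2.48-fold above Activin+PD. The symbol rule also took 5 genes with no transport class here, among them Slc9a3r1 and Slc9a3r2, which encode scaffold proteins named after a carrier. Slc9a3r2 had 152 in mEpiSCs, 421 in Activin+PD and 191 in 2i and so was highest in Activin+PD, by 2.20-fold over 2i.

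Activin+PD and 2i share the MEK inhibitor and differ in Activin A against the GSK3 inhibitor, and the 9 members at least 2-fold apart between them came from several classes. The 7 that were higher in Activin+PD were Slc16a3, Slc27a2, Slc38a1, Slc15a1, Slc9a3r2, Slc43a3 and Slc7a8. Slc30a2 and Slc4a5 were the lower ones. With 64 days for Activin+PD and 34 days for 2i, time and medium cannot be told apart here.

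Of the 42 partner genes listed beside the carriers, 32 reached the limit. Between mEpiSCs and 2i, 4 were at least 2-fold higher and 5 lower. Between mEpiSCs and Activin+PD 4 were higher and 7 lower, and between Activin+PD and 2i 1, Emb, was higher and 0 were lower. In the same order, the shares over all genes at the limit were 6.47% and 7.54%, 5.17% and 8.02%, and 2.01% and 1.21%.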

How the data were processed

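RNA of 3 cultures was measured on Affymetrix Mouse Gene 2.0 ST arrays, without replicates. The authors deposited 1 intensity per probe set on a linear scale; per the submitters' processing notes these come from RMA, a method of background correction, quantile normalisation and probe summary, and the series' design text names GeneSpring GX 11.5. From the values, the lowest intensity was about 19 on each array (19.1 in mEpiSCs, 18.9 in Activin+PD, 19.0 in 2i); no label says whether a constant had been added, and one would make folds of dim genes smaller. Nothing was renormalised: log2 of each deposited intensity was taken, and differences are the first-named array minus the second. Precision is limited by the number of arrays, and no test was run.

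Of 33793 probe sets, 23521 had 1 gene symbol in the platform annotation, 1814 had several and were not used to name a gene, and 8458 were not listed there. Symbols were updated through Entrez identifiers for 23328. The probe set with the highest mean log2 value stood for a gene. Substrate classes were assigned by gene symbol, so that 1 family can fall into several classes, as Slc16a3 and Slc16a10 do. For genes at or below background on the dimmer array, the difference is a bound ("at least") taken from the background there. The text names, for each class and comparison, up to 4 members per direction with the largest difference of at least 2-fold, a set of well-known members, and listed partners and markers; a few further members within 2-fold, such as Slc39a10, Slc6a6 and Slc27a4, were chosen after their values were seen. The members, lists and this rule were chosen with earlier results of these data known. Slc30a1 is not analysed here. Promoters were those of RefSeq, matched by symbol for 108 of 137 members. The counting was run on simulated data without noise, which checks its arithmetic and not the error of single arrays. Python 3.11.15, numpy 2.4.6, pandas 2.3.3 and scipy 1.17.1 were used.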

Additional observations from a re-analysis of the deposited data

Results flagged for a closer look

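Outside the comparisons, 18 probe sets listed a solute carrier symbol together with another gene, and 7 of them reached an intensity of 150 on at least 1 array. They were set aside because their signal cannot be given to 1 gene. None of the 7 differed at least 2-fold between any 2 of the 3 arrays.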

How the results depend on the processing

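No paired analysis was possible because each culture had 1 array. With a limit of 300 in place of 150, 11 members in place of 19 were at least 2-fold higher in mEpiSCs than in 2i and 8 in place of 15 than in Activin+PD. The shares of members at 300 were 12.9% and 9.41%, against 6.11% and 4.97% of all genes at that limit. With the limit on the mean of the 3 arrays, added after seeing the data, these counts were 12 and 8; the share of members was then 6.84%, against 3.18% of all genes counted, for mEpiSCs above Activin+PD. At 1.5-fold, 30 members were higher and 31 lower in mEpiSCs than in 2i, 25 and 32 than in Activin+PD, and 15 were higher and 10 lower in Activin+PD than in 2i. In the same order, the shares over all genes at the limit were 11.6% and 14.2%, 11.01% and 14.76%, and 5.896% and 3.37%. The share of members was larger each time, but many genes outside the carriers also passed this lower cut-off. All other counts stayed within 1.5 times their value under a limit of 100, median centring, repeated quantile normalisation, values below background raised to it, 16 subtracted from each intensity, and the mean over probe sets. No class median left the 95% order-statistic interval of its members under these settings, in classes large enough to have one. That interval is over genes and not over cultures. In small classes such as glucose and lactate it runs from the lowest to the highest member, so this check could hardly fail. These settings were run on 59 member genes, the 46 at least 2-fold apart in any comparison and 13 others; the partners were not included. Of 574 differences at or past 2-fold among them, one for each gene, comparison and setting, 571 stayed past it, 0 reversed and 3 fell within it, all with the mean over probe sets. These were Slc27a2, at 0.93 for mEpiSC minus Activin+PD and 0.86 for Activin+PD minus 2i, and Slc29a3, at -0.76 for mEpiSC minus Activin+PD. The dim second probe set accounts for this by construction. Many of the other outcomes were fixed beforehand, so the count of 571 says little about stability. An intensity limit or fold cut-off leaves a gene's difference as it was, and subtracting 16 can only enlarge it. The mean over probe sets can move only the 10 members with 2 probe sets. Signals near background, as for the mESC levels of Slc39a8, carry only bounds.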

Other observations

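Of the 224 solute carrier genes under the limit of 150, 131 were above background on at least 1 array and 93 on none. Where 1 or both arrays of a comparison were above background, 3 of 123 were at least 2-fold higher and 1 lower in mEpiSCs than in 2i, 3 of 129 higher and 2 lower in mEpiSCs than in Activin+PD, and 1 of 124 higher and 1 lower in Activin+PD than in 2i. No share over all genes under the limit is given here, so these counts have no general rate beside them. The genes named here were chosen after their values were seen. Besides Slc40a1, Slc38a3, a glutamine carrier, had an intensity of 123 in mEpiSCs, 54.3 in Activin+PD and 53.8 in 2i. Slc1a1, a glutamate carrier, was highest in Activin+PD, with 46.5 in mEpiSCs, not above background, 136 in Activin+PD and 57.9 in 2i. Slc9b1, of the sodium-proton exchangers, had 46.2 in mEpiSCs, not above background, 74.0 in Activin+PD and 127 in 2i.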
